A study of Mus musculus with 4 samples.

Results

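Kinesins are motor proteins that walk along microtubules or take them apart, using the energy of ATP. In the testis they separate chromosomes in dividing germ cells, carry cargo in spermatids, and build and run the sperm flagellum. The genes of this superfamily were taken from a table of transcript levels by name: every entry whose symbol starts with Kif followed by a digit or the letter c, and the light chain genes Klc1 to Klc4. This gave 46 of the 26068 named genes. The levels came from RNA sequencing of whole testes of male B6D2F1 mice aged 24 days, an age at which the first spermatids of the mouse are maturing. There were 2 wild type libraries (replicates 1 and 2) and 2 libraries from mice homozygous for the Adad2 knockout (replicates 1 and 2). B6D2F1 is a hybrid of inbred strains, and no other allele or treatment is named in the labels. Adad2 is a gene of male germ cells whose product can bind RNA, and the study asks, by its title, about piRNA production and spermiogenesis, the shaping of spermatids into sperm. Whether a replicate is an animal of its own is not in the labels. The p-values therefore cover the spread among these libraries, and that spread may be technical.

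Levels are given as log2 RPKM, reads corrected for the size of the gene and of the library, so that 0 stands for 1 RPKM. Of the 46 kinesin genes, 44 had a mean over the 4 libraries of at least 0 and entered the test, against 13414 of all genes. The test was limma across all 13414 genes, two-sided, with Benjamini-Hochberg adjustment and a threshold of 0.05. Library depth, read from the value of a single read, was about 30200000 and 36900000 reads in wild type and 33000000 and 29400000 in knockout. The tested kinesin genes held an estimated 189 to 8834 reads per library. Adad2 itself had 4.66 and 4.47 log2 RPKM in wild type and 3.73 and 3.30 in knockout, a lower level with transcript still measured (limma adjusted p = 0.00604, and 0.143 or 0.0838 with wild type replicate 1 or 2 left out). The summed level of 8 elongating spermatid markers was 806 to 839 RPKM in wild type and 43.7 to 78.3 RPKM in knockout. That of 7 round spermatid markers was 185 to 205 and 73.3 to 92.1 RPKM, while that of 8 pachytene spermatocyte markers was 1975 to 2268 and 2300 to 2445 RPKM. The pachytene markers did not move together, so their sum does not stand for each of them. Pgk2 was lower in knockout (limma adjusted p = 0.0216). Tex101 was higher, from 7.66 and 7.85 to 8.86 and 8.92 log2 RPKM (limma adjusted p = 0.000977). The other 6 did not pass the threshold. In whole-tissue RNA, fewer cells of a type and less RNA per cell cannot be told apart.

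In what follows, a gene fell or rose if it was called, that is, had a limma adjusted p under 0.05. Of the 44 tested kinesin genes, 3 fell in the knockout and 0 rose. Those that fell were Kif2b, Kif17 and Kif27. Their share of 6.82% was close to that of all genes tested, of which 7.15% fell and 1.22% rose (8.36% in either direction), so the count sets the superfamily apart from other genes in neither direction. The median change over the tested kinesin genes was 0.13 on the log2 scale, beside 0.14 over all genes tested. The remaining 41 lay between -0.44 and 0.41. Their confidence intervals reached a median of 0.28 to each side over the tested kinesin genes, so small changes of single genes were not resolved. Among the genes not called, 7 had an unadjusted limma p under 0.05, 3 of them lower and 4 higher. With the called genes included, these were 10 of the 44 kinesin genes, beside 3616 of all 13414 genes tested. With wild type replicate 1 left out, limma called 0 of the kinesin genes and 0 of all genes tested, although 7 kinesin genes and 2357 genes in all had an unadjusted p under 0.05. With wild type replicate 2 left out it called 1 kinesin gene, Kif17.

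**Figure D1:**
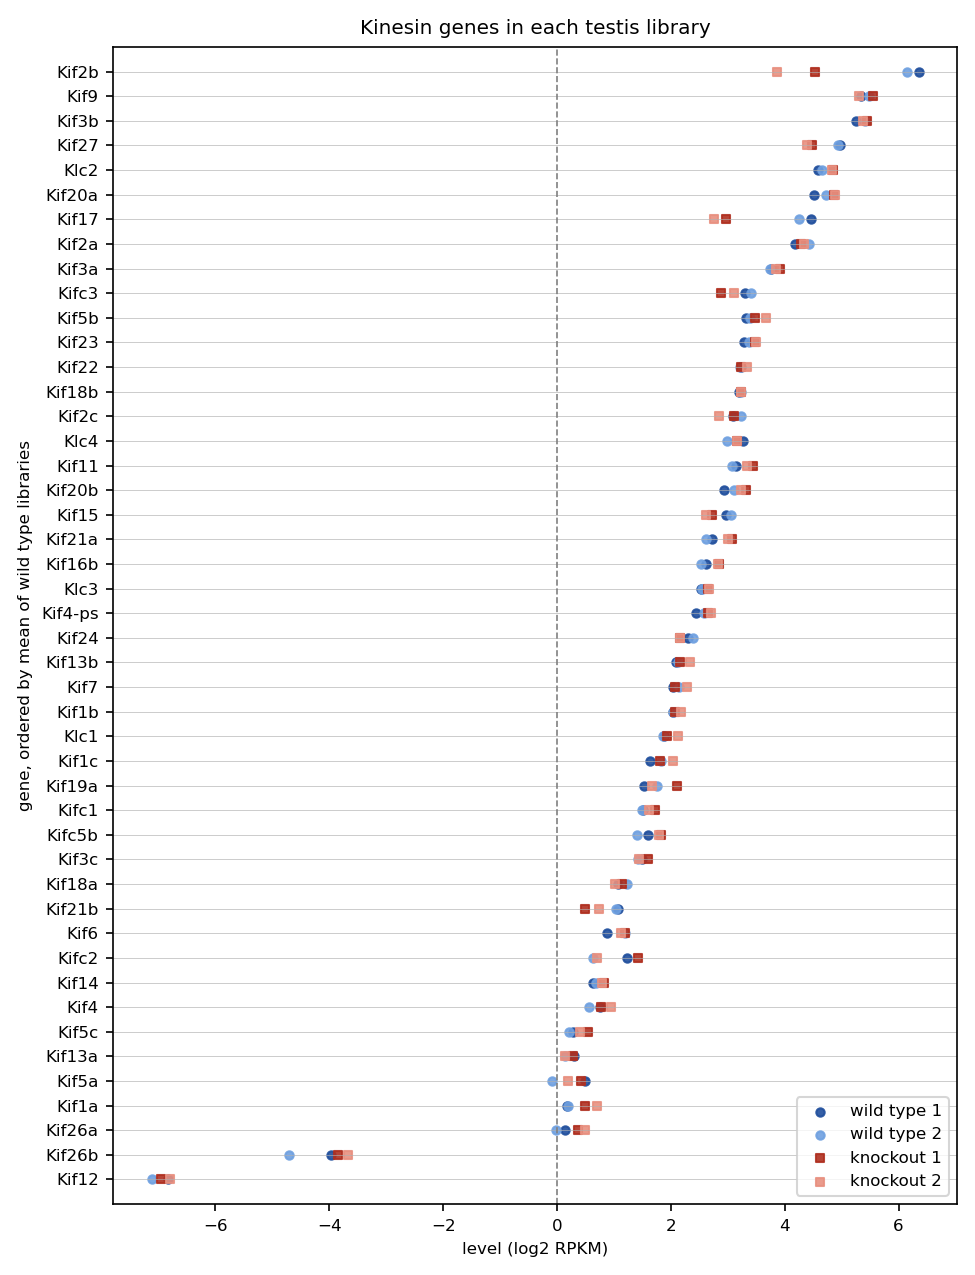
Level of each of the 46 kinesin genes in each library. The x axis is log2 RPKM, circles are the wild type and squares the knockout libraries, and genes are ordered by their wild type mean. Kif2b stands highest in wild type at 6.35 and 6.15 and lies at 4.53 and 3.87 in knockout, and the dashed line at 0 is the level below which genes were not tested.

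The sequence before the start of these genes is shown for 5 of them, because they differ in a site that the cyclic AMP response factors, among them the spermatid regulator Crem, are known to bind, or in an element typical of cell division genes. The sequences are RefSeq promoter windows on the GRCm38.p6 build, 250 bases before to 50 after the annotated start. Only bases before the start are printed, 5′ to 3′ on the gene's strand, and positions count back from -1. A window was matched by symbol for 36 of the 46 genes, giving 40 windows, since some genes have more than 1 start. None was matched for Kif13b, Kif19a, Kif20a, Kif21b, Kif4-ps, Kif5a, Kif5b, Kifc2, Kifc3 and Klc2.
Kif17, chr4:138262121-138262210, plus strand, positions -130 to -41, with the full CRE in capitals: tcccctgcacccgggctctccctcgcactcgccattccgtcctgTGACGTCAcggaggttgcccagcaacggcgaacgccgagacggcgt
Klc1, chr12:111758798-111758848, plus strand, positions -70 to -20, with the full CRE in capitals: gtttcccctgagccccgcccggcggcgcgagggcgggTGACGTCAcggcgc
Kif5c, chr2:49619216-49619285, plus strand, positions -70 to -1, with the full CRE in capitals: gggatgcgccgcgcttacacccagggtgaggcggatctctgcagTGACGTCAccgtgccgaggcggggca
Kif2b, chr11:91577559-91577685, minus strand, positions -130 to -4, with a CRE half-site and a CCAAT box in capitals: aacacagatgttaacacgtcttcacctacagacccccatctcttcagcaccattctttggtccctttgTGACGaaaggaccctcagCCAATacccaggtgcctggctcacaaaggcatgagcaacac
Kif11, chr19:37376312-37376381, plus strand, positions -70 to -1, with a CCAAT box and a CHR element, both read on the opposite strand, in capitals: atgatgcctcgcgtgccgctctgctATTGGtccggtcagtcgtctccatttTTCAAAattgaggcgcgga

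The full CRE (cyclic AMP response element), searched as TGACGTCA on both strands, was found in windows of 4 of the 36 genes. It was present in 1.79% of all 32851 windows of that length and in 3.20% of the 11298 windows of genes tested here. In Kif17 the CRE lay at positions -86 to -79, in Klc1 at -33 to -26 and in Kif5c at -26 to -19. In Kif18a it lay after the start, at 31 to 38. Of these 4 genes Kif17 fell, while the changes were 0.16 for Klc1 (95% confidence interval -0.14 to 0.46), 0.23 for Kif5c (-0.21 to 0.67) and -0.07 for Kif18a (-0.44 to 0.30). The half-site TGACG, which every full CRE contains, was in windows of 18 of the 36 genes. By window, it was in 47.5% of the 40 kinesin windows and 30.4% of the windows of tested genes. The Kif2b window held 1 half-site, at -62 to -58, and a CCAAT box at -44 to -40. The Kif27 window held no match to either form. The RefSeq start of Kif2b lay 3 bases from the outermost transcript start of Gencode M21. For Kif27 that distance was 4175 bases and for Kif17 it was 11816 bases, so these windows show 1 of several annotated starts. The levels in the table are per gene and do not show which start was used.

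The CHR element (cell cycle genes homology region), searched as TTTGAA on both strands, is known from promoters of genes expressed in dividing cells. It was found in windows of all 5 matched spindle motor genes of the kinesin-5, -6, -10 and -12 families (Kif11, Kif15, Kif20b, Kif22 and Kif23). Over all 36 genes it was found in 14. It was in 35.0% of the 40 kinesin windows, beside 12.2% of the windows of tested genes and 17.9% of all windows. Kif27, which fell, was among the 14, with matches at -191 to -186, -89 to -84 and -73 to -68. The CCAAT box was found in windows of 18 of the 36 genes, in 47.5% of the 40 kinesin windows and in 38.6% of the windows of tested genes. The core AACNG of sites for MYB factors was found in 31 of the 36 genes, in 87.5% of the 40 kinesin windows and in 78.3% of the windows of tested genes. A match of letters does not show that a factor binds there.

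**Figure D2:**
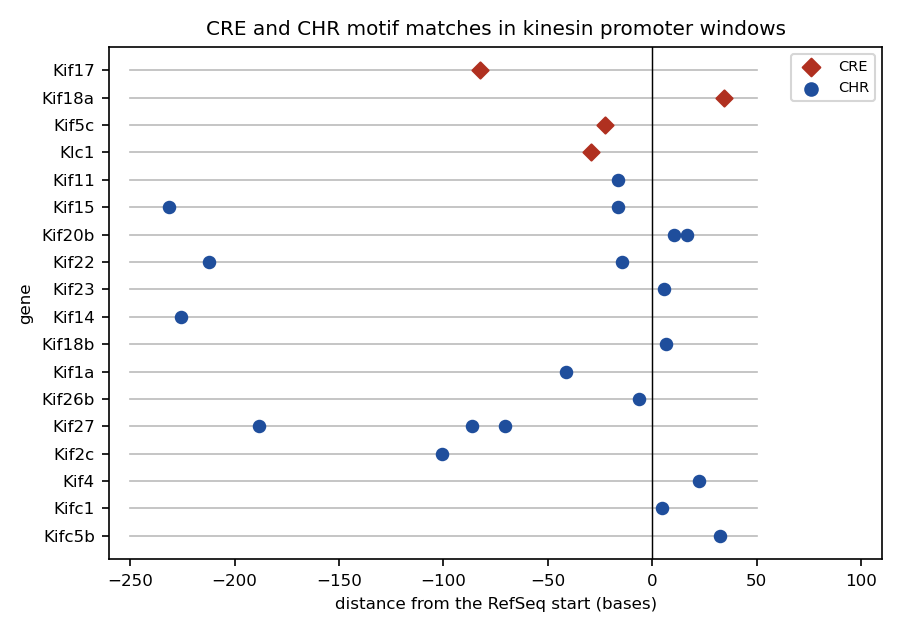
Positions of full CRE matches (red diamonds) and CHR matches (blue circles) in the promoter windows of kinesin genes that hold at least 1 of them. The x axis is the distance from the RefSeq start in bases, and each grey line is the window of a gene. The 4 genes with a full CRE stand at the top, and Kif17 has its match at -86 to -79.

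Kif2b had the largest change of the superfamily. It encodes a kinesin-13, a motor that does not walk but removes tubulin from microtubule ends, and is known for turnover of the attachments between chromosomes and spindle. The gene has 1 exon in Gencode M21, lies on the minus strand of chromosome 11 from 91436629 to 91438923 in mm9 (ENSMUSG00000046755), and overlapped no other entry of the table. Kif2b stood at 6.35 and 6.15 log2 RPKM in the wild type libraries and at 4.53 and 3.87 in the knockout libraries. Both knockout libraries were below both wild type libraries, and the knockout libraries differed from each other more than the wild type libraries did. In reads these were 5671 and 6003 against 1748 and 986, which came out whole from the length in the table. Means with SD (n = 2 each) were 6.25 ± 0.15 in wild type and 4.2 ± 0.47 in knockout, which is 4.14-fold lower (log2 change -2.05, SE 0.23, 95% confidence interval -2.63 to -1.47, limma adjusted p = 0.00528). Kif2b was the highest of the 46 genes in wild type and the seventh in knockout (rank 7). Leaving out wild type replicate 1 gave an adjusted p of 0.0765 and leaving out wild type replicate 2 one of 0.0525, both above the threshold. In each case 1 wild type library is left, so the gene's own spread comes from the knockout pair. Limma combines it with the spread pooled across genes.

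The other kinesin-13 genes were not called. Kif2a, which trims microtubules at spindle poles and in neurons, was at 4.18 and 4.42 log2 RPKM in wild type and 4.29 and 4.34 in knockout, so the groups overlapped. Its change was 0.02 (95% confidence interval -0.25 to 0.28). Kif2c, the centromere form, was at 3.09 and 3.23 against 3.11 and 2.85, with a change of -0.18 (-0.47 to 0.10). Kif24, which acts at the base of cilia, was at 2.30 and 2.40 against 2.15 and 2.16, with a change of -0.19 (-0.46 to 0.08). In wild type Kif2b was above Kif2a by 2.174 and 1.73 on the log2 RPKM scale in replicates 1 and 2. In knockout this distance was 0.24 in replicate 1 and -0.48 in replicate 2, so that the transcript of Kif2b was near or below that of Kif2a there. A test of this difference between the genes was not made.

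The kinesin-8 genes, which regulate the plus ends of microtubules, were not called either. Kif18a, needed to align chromosomes, had a change of -0.07, and Kif18b, a related motor of the mitotic spindle, had one of 0.02 (-0.21 to 0.25) with 3.20 and 3.23 log2 RPKM in wild type against 3.22 and 3.24 in knockout. Kif18b thus had nearly the same level in all 4 libraries. Kif19a, which limits the length of motile cilia, was at 1.52 and 1.75 against 2.10 and 1.67, and its groups overlapped.

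Kif17 fell as well. This kinesin-2 works as a pair of identical chains, and in male germ cells it is known to carry the transcriptional coactivator Fhl5 (also called ACT) and to visit the chromatoid body, the granule of RNA and PIWI proteins in spermatids. In mm9 the gene (ENSMUSG00000028758) spans bases 137806350 to 137857882 of chromosome 4, plus strand. Its levels were 4.46 and 4.26 log2 RPKM in wild type and 2.96 and 2.77 in knockout, which is 3049 and 3239 reads against 1178 and 918. The libraries of a group lay close together and the groups were far apart. The knockout level was 35.5% of the wild type level (4.36 ± 0.14 and 2.86 ± 0.14, mean ± SD, n = 2 each; limma adjusted p = 0.000278), and the rank of Kif17 among the 46 genes went from 7 to 19. With wild type replicate 1 left out its adjusted p was 0.0535. It is overlapped on the same strand by Sh2d5, which was at -1.24 log2 RPKM in wild type and -0.79 in knockout, too low to be tested.

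The heterotrimeric form of kinesin-2, the motor of transport into cilia and flagella, consists of Kif3a, Kif3b or Kif3c, and the accessory subunit Kifap3. Kif3b, among the highest kinesins in all libraries, was at 5.25 and 5.41 log2 RPKM in wild type and 5.45 and 5.38 in knockout, with a change of 0.09 (95% confidence interval -0.16 to 0.34). Kif3a was at 3.76 and 3.75 against 3.92 and 3.86, with a change of 0.13 (-0.10 to 0.36). Kif3c was at 1.49 and 1.42 against 1.60 and 1.43, with a change of 0.07 (-0.27 to 0.40). None of these motor subunits was called, and for all of them the interval excluded a change as large as that of Kif17. Kifap3, which is no motor and not in the count of 46, was at 4.57 and 4.56 in wild type and 3.82 and 3.89 in knockout. It fell 1.64-fold (limma adjusted p = 0.00308), although its motor partners were not called. With wild type replicate 1 or 2 left out the adjusted p of Kifap3 was 0.0783 or 0.0574. Fhl5, the cargo of Kif17, fell 10.1-fold, from 4.63 and 4.54 to 1.67 and 0.82 (limma adjusted p = 0.00461, and 0.0619 without wild type replicate 1).

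Kif27 was the third gene that fell. It is a kinesin-4 that binds the kinase Stk36, and both are known from the assembly of motile cilia. The gene lies on the minus strand of chromosome 13 from 58388877 to 58456223 in mm9 (ENSMUSG00000060176). It was at 4.97 and 4.94 log2 RPKM in wild type and at 4.48 and 4.39 in knockout, so the distance between the groups was larger than that within them. The change was -0.52 (SE 0.10, 95% confidence interval -0.75 to -0.28, limma adjusted p = 0.0157), a 1.43-fold lower level. The antisense entry Gm16613 overlaps Kif27 and fell too, from 2.09 to 1.54 (limma adjusted p = 0.0342). The sources used here do not say whether strand was used in counting, so reads of the pair may not have been told apart. Of the 46 kinesin genes, 17 overlapped another entry of the table, 16 of them one on the opposite strand. The adjusted p of Kif27 was 0.134 with wild type replicate 1 left out, 0.0973 with wild type replicate 2 left out and 0.0549 with knockout replicate 2 left out, each above the threshold. That of Gm16613 was 0.232 and 0.166 with wild type replicate 1 and 2 left out, and 0.0816 with no filter on low levels.

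Among the partners of kinesin-4 proteins, Stk36 and Sufu were called. Stk36, the kinase bound by Kif27, fell 1.62-fold, from 3.91 and 3.76 to 3.26 and 3.01 log2 RPKM (limma adjusted p = 0.00907). Sufu, the inhibitor of Gli factors that works with Kif7, fell 1.45-fold, from 2.30 and 2.40 to 1.82 and 1.81 (limma adjusted p = 0.0311). Kif7 itself was at 2.03 and 2.14 against 2.07 and 2.28, and its groups overlapped. With wild type replicate 1 or 2 left out the adjusted p was 0.176 or 0.0992 for Stk36 and 0.181 or 0.199 for Sufu, and with no filter it was 0.0767 for Sufu.

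**Figure D3:**
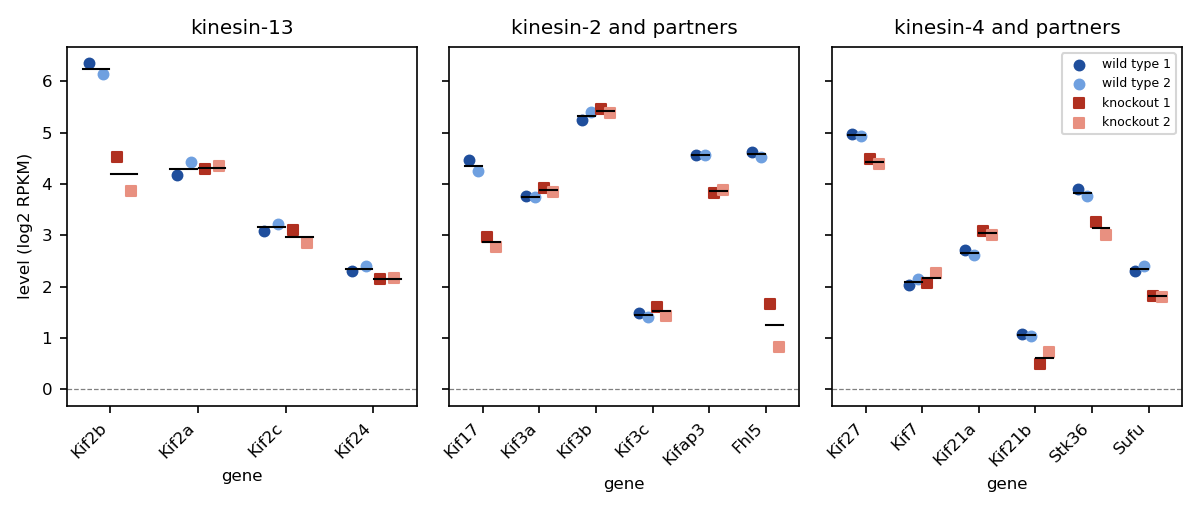
Levels in each library for kinesin-13 genes, for kinesin-2 genes with Kifap3 and Fhl5, and for kinesin-4 genes with Stk36 and Sufu. The y axis is log2 RPKM, circles are wild type and squares knockout libraries, and black bars are group means (n = 2 each). Kif2b, Kif17 and Kif27 lie lower in both knockout libraries, as do Kifap3, Fhl5, Stk36 and Sufu, while the libraries of Kif2a and Kif3b overlap between groups.

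The remaining kinesin-4 genes were not called. Kif21a and Kif21b, close relatives that slow the growth of microtubules, stood on opposite sides of 0. Kif21a was at 2.72 and 2.61 log2 RPKM in wild type and 3.08 and 3.0 in knockout, with a change of 0.37 (95% confidence interval 0.12 to 0.62, limma adjusted p = 0.0802). Kif21b was at 1.07 and 1.04 against 0.49 and 0.74, with a change of -0.44 (-0.84 to -0.04, limma adjusted p = 0.159). In both genes the groups did not overlap. Groups that do not overlap were common, however, found in 63.2% of all genes tested (lower in knockout in 16.8%, higher in 46.4%). Among the 44 kinesin genes they were found in 29 (65.9%), 7 lower and 22 higher. Kif4, a chromosome-bound motor, was at 0.76 and 0.56 against 0.77 and 0.95. Its pseudogene Kif4-ps was at 2.45 and 2.58 against 2.65 and 2.71, and reads of the pair may have been shared.

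The spindle motors of the kinesin-5, -6, -10 and -12 families were expressed at intermediate to high levels and 0 of 6 were called, with 5 above 0, 1 below 0 and a median change of 0.21. Kif20a, needed for the final cut between daughter cells, was the highest of them at 4.51 and 4.73 log2 RPKM in wild type and 4.87 and 4.89 in knockout (limma adjusted p = 0.185). Kif11, the motor that pushes spindle poles apart, was at 3.14 and 3.07 against 3.44 and 3.35, with a change of 0.28 (95% confidence interval 0.05 to 0.52, limma adjusted p = 0.134). Kif15, which can take over from Kif11, had the opposite sign, at 2.97 and 3.06 against 2.73 and 2.62 and with a change of -0.34 (-0.59 to -0.08, limma adjusted p = 0.109). The distance of Kif15 from Kif11 was -0.09 in wild type and -0.71 in knockout on the log2 RPKM scale, a difference that was not tested. Kif23, the motor of the central spindle, was at 3.28 and 3.36 against 3.48 and 3.5, and its partner Racgap1 had a change of 0.14 (-0.11 to 0.38). Kif20b, a further motor of cell separation, was at 2.93 and 3.11 against 3.31 and 3.22. Kif22, which moves chromosome arms, was at 3.22 and 3.21 against 3.23 and 3.34.

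Of 22 other genes of cell division, among them Mki67 and the aurora kinases, limma called 0, with 20 above 0 and a median change of 0.19. Their summed level was 329 to 355 RPKM in wild type and 377 to 389 RPKM in knockout. The summed level of 8 spermatogonial markers was 66.3 to 69.0 RPKM in wild type and 81.7 to 83.7 RPKM in knockout. That of 7 Sertoli markers was 313 to 336 and 403 to 407 RPKM. Limma called 0 of the 6 tested spermatogonial and 0 of the 7 Sertoli markers, and all of these had a change above 0. Below the limit for testing, Nanos3 was higher in knockout and Gfra1 lower (0.19 and -0.20 against -0.35 and -0.32 log2 RPKM). The spermatogonial sum rested in large part on Uchl1 (5.15 and 5.06 against 5.54 and 5.31). The Sertoli sum rested in large part on Clu (7.90 and 7.76 against 8.16 and 8.16). The part of these cell types in the values of the spindle motors was not tested.

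Conventional kinesin-1, which carries vesicles, mitochondria and RNA towards the cell edge, is built of a Kif5 heavy chain and a light chain that binds cargo. Of its 7 genes 0 were called, and all 7 had a change above 0, from 0.03 to 0.23, with a median of 0.16. A change above 0 was seen in 71.8% of all genes tested and one below 0 in 28.2%, and in 34 and 10 of the 44 kinesin genes. Kif5b, the general heavy chain, was at 3.31 and 3.39 log2 RPKM in wild type and 3.48 and 3.67 in knockout (change 0.23, 95% confidence interval -0.03 to 0.48). The heavy chains known from neurons were far lower, Kif5a at 0.48 and -0.08 against 0.42 and 0.20, and Kif5c at 0.27 and 0.21 against 0.54 and 0.40. The highest light chain was Klc2, at 4.59 and 4.66 against 4.85 and 4.83 (change 0.22, -0.02 to 0.45, limma adjusted p = 0.206). Klc3, a light chain of the sperm tail that binds outer dense fibres and mitochondria, was at 2.53 and 2.54 against 2.65 and 2.66, with a change of 0.12 (-0.13 to 0.36). Klc1 was at 1.88 and 1.86 against 1.94 and 2.12, and Klc4 at 3.26 and 2.99 against 3.15 and 3.16. Of these genes, the sign changed when a library was left out for Kif5a and Klc4.

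The kinesin-3 genes, motors of vesicles and endosomes, included 7 members with 0 called and changes from -0.01 to 0.41. Kif16b, a motor of early endosomes, was the highest at 2.62 and 2.53 log2 RPKM in wild type and 2.84 and 2.83 in knockout (change 0.27, 95% confidence interval 0.02 to 0.52, limma adjusted p = 0.162). Kif1a, known from synaptic vesicle transport, was at 0.18 and 0.19 against 0.49 and 0.70, the highest change among the genes not called (0.41, -0.03 to 0.85, limma adjusted p = 0.208). Kif14, which acts in cell separation, was at 0.64 and 0.69 against 0.82 and 0.78. Kif1b, Kif1c and Kif13b had changes of 0.09, 0.20 and 0.14, and Kif13a one of -0.01.

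The kinesin-9 genes, motors of the axoneme, were not called. Kif9, of the central pair of the sperm flagellum, was at 5.34 and 5.48 log2 RPKM in wild type and 5.54 and 5.30 in knockout, with overlapping groups and a change of 0.01 (95% confidence interval -0.27 to 0.29). It stood second in wild type and first in knockout among the 46 genes (ranks 2 and 1). Kif6, its relative known from motile cilia, was at 0.88 and 1.20 against 1.20 and 1.13, and its groups overlapped. An antisense entry within Kif6, Gm16555, was at 0.80 and -0.22 against -1.40 and -3.56. Its mean was below the limit for testing, so its level is a description.

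The kinesin-14 genes carry their motor at the C-terminal end and move towards microtubule minus ends. Kifc3 was at 3.31 and 3.41 log2 RPKM in wild type and 2.89 and 3.10 in knockout, with a change of -0.36 (95% confidence interval -0.63 to -0.10, limma adjusted p = 0.102, and 0.0256 without knockout replicate 2). Kifc1, which focuses spindle poles and is known from shaping of the spermatid head, was at 1.51 and 1.5 against 1.73 and 1.62. Kifc5b, a close copy of Kifc1, was at 1.59 and 1.41 against 1.83 and 1.78, and the values of this pair are uncertain where reads were shared. Kifc2 varied most within groups, at 1.23 and 0.63 against 1.43 and 0.71, higher in replicate 1 of each group. Kif26a, an atypical kinesin-11, was at 0.14 and -0.03 against 0.37 and 0.49. The genes below the limit for testing were Kif26b, with an estimated 21 to 34 reads per library, and Kif12, which carried 0.9 of a read, the value given to genes without reads, in all 4 libraries. The estimates for Kif26b did not come out whole, so the gene length behind its deposited values may differ and its true reads may be fewer or more.

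**Figure D4:**
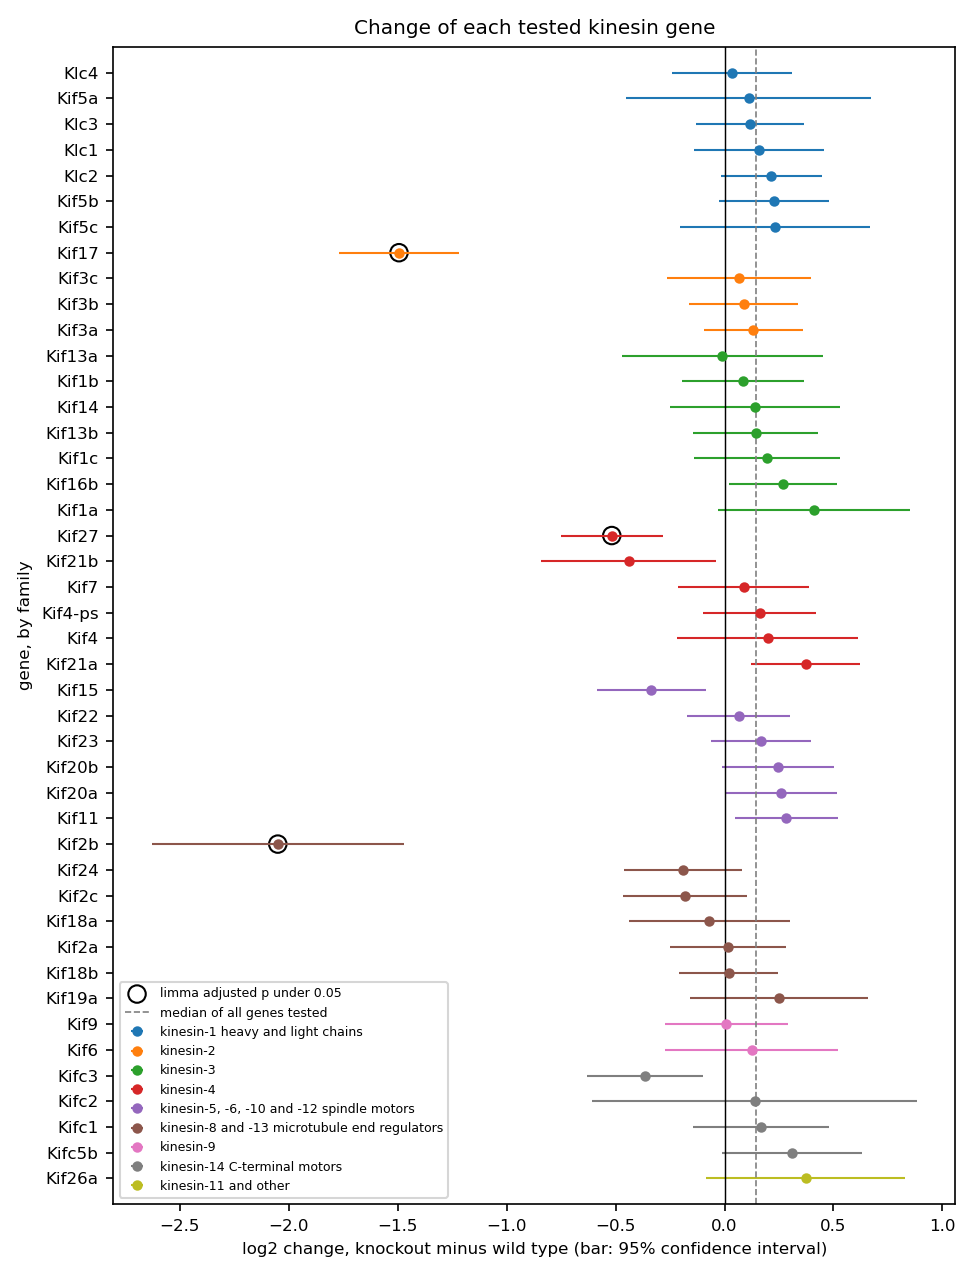
Change of each of the 44 tested kinesin genes, grouped by family. The x axis is the log2 change, knockout minus wild type, with bars for 95% confidence intervals, the solid line at 0 and the dashed line at the median of all genes tested (0.14), and black rings mark a limma adjusted p under 0.05. The 3 ringed genes are Kif2b at -2.05, Kif17 at -1.49 and Kif27 at -0.52, and the other 41 lie between -0.44 and 0.41.

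Summed over all 46 genes, kinesin transcripts came to 460 and 464 RPKM in the wild type libraries and 416 and 396 RPKM in the knockout libraries. Kif2b alone made up 17.8% and 15.3% of this sum in wild type and 5.56% and 3.69% in knockout. Together with Kif17 and Kif27 it made up 29.4% and 26.0% against 12.8% and 10.7%. Without those genes, which were picked out by their change, the sum was 325 and 344 RPKM in wild type and 362 and 353 RPKM in knockout. The most abundant kinesin transcript was that of Kif2b in both wild type libraries, at 81.7 and 70.8 RPKM. In knockout it was Kif9 in replicate 1 (46.6 RPKM) and Kif3b in replicate 2 (41.7 RPKM).

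**Figure D5:**
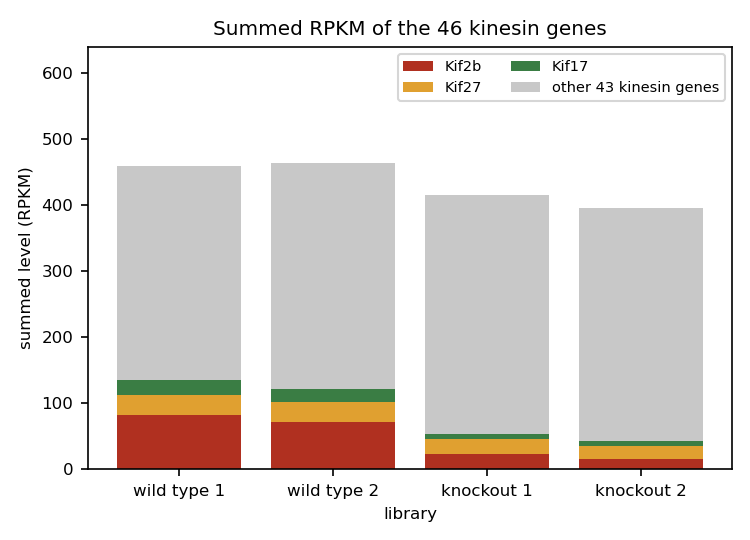
Summed level of the 46 kinesin genes in each library, in RPKM, with Kif2b, Kif27 and Kif17 drawn apart from the other 43. The bars stand at 460, 464, 416 and 396 RPKM, and the red part for Kif2b shrinks from 81.7 and 70.8 RPKM in wild type to 23.1 and 14.6 RPKM in knockout.

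Markers of spermatids were lower in the same libraries as Kif2b, Kif17 and Kif27. The summed level of the elongating spermatid markers was 839 and 806 RPKM in wild type and 78.3 and 43.7 RPKM in knockout. All 8 markers had a change below 0 and 7 were called lower. Tnp2 was not called, at a change of -5.39 (limma adjusted p = 0.0761). For the round spermatid markers the sum was 205 and 185 RPKM against 92.1 and 73.3 RPKM. All 7 had a change below 0 and 5 were called lower, beside 7.15% of all genes tested. Those not called were Spaca7, with a change of -1.80, and Acr, with one of -0.22. Acr was the highest of these markers in knockout, at 5.62 and 5.54 log2 RPKM, so the sum rests in large part on it there. Kif2b was at 81.7 and 70.8 RPKM against 23.1 and 14.6 RPKM. Kif17 was at 22 and 19.1 RPKM against 7.80 and 6.80 RPKM, and Kif27 at 31.3 and 30.7 RPKM against 22.4 and 21 RPKM. The part of the spermatid share in the level of these kinesins was not tested.

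Of 19 tested partners and regulators of kinesins outside the superfamily, 5 fell and 0 rose, with a median change of 0.04, 8 below 0 and 11 above 0. Of all genes tested 7.15% fell and 1.22% rose, with a median of 0.14. The list was drawn up with earlier results of these data known, so its share of fallen genes is only a description. The 5 that fell were Fhl5, Kifap3, Stk36 and Sufu, described above, and the transcription factor Crem, the binding partner of Fhl5. Crem went from 3.93 and 4.02 to 3.57 and 3.47 log2 RPKM (limma adjusted p = 0.0313). The adjusted p of Crem was 0.164, 0.18 and 0.0845 with wild type replicate 1, wild type replicate 2 or knockout replicate 2 left out. It was 0.0823 with no filter and 0.0794 in limma with neither trend nor robust estimation. Prc1, which bundles microtubules of the central spindle with Kif4, was at 2.87 and 3.17 against 2.56 and 2.60 (limma adjusted p = 0.0819, and 0.0368 without knockout replicate 2). Cenpe, a kinesin of the kinetochore that the naming rule leaves out, had a change of 0.06 (95% confidence interval -0.17 to 0.29). Of 32 tested genes of cytoplasmic dynein and dynactin, the motor that runs the other way, 0 were called, with 13 below 0, 19 above 0 and a median change of 0.07. Their changes ran from -0.32 for Hook1 to 0.35 for Dync1i1.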

How the data were processed

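Whole-testis RNA was sequenced after TruSeq library preparation, per the labels' protocols. Among the tools, bcl2fastq 2.17.1.14 and Bowtie2 (no version) are listed, with mm9 as the build, per the submitters' processing notes. How reads were counted, on which annotation and with what use of strand, is not given in the sources used here. The authors deposited log2 RPKM values per gene. Numbered control columns were taken as wild type and numbered null columns as knockout, each with the same number as its label. The 59 rows without a gene name were left out.

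In 534 genes with a single exon, low values were whole multiples of 1 read and genes without reads carried 0.9 of a read, which gave the depth as an estimate. Reads per kinesin gene used exon lengths of Gencode M21 (for a gene with a single exon, the span in the table), and came out whole within 0.05 in all 4 libraries for 11 genes.

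Genes with a mean of at least 0 entered limma 3.58.1 under R 4.3.3 (intensity trend, robust estimation with statmod 1.5.0, no pseudocount), unpaired. Changes are knockout minus wild type. With 2 libraries against 2, an exact permutation test cannot go below p = 0.333, so calls rest on the spread pooled across genes. The code was tested on simulated data. The kinesin genes, the other gene lists and the tests were chosen with earlier results of these data known. By the naming rule all kinesin genes are described, in full where past the threshold or known from testis, spindle or cilia, and of other lists up to 6 genes past the threshold. Others were named after their values were seen (Prc1, Racgap1, Cenpe, Hook1, Dync1i1, Gm16613, Gm16555, Sh2d5). Alternatives were other filters, log2(RPKM + 1), 2 scalings, plain limma (no trend, not robust), a replicate block and leaving out each library.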

Additional observations from a re-analysis of the deposited data

How the results depend on the processing

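Kif2b, Kif17 and Kif27 stayed negative under all 11 alternatives and were called under 9, 10 and 8 of them. The count of kinesin genes that fell was 0 to 3 and of those that rose 0 to 0 when a library was left out. Over all genes, 959 fell and 163 rose. These counts were 0 to 1308 and 0 to 494 with a library left out, and the counts of 0 came without wild type replicate 1, with 2357 genes at an unadjusted limma p under 0.05. A filter at a mean of 2 gave 637 lower genes, no filter gave 97 higher genes, and quantile normalization gave 245 higher genes.

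Same-numbered libraries share only a number in the labels, and their deviations correlated at r = 0.33 across genes. With the replicate block, 5 kinesin genes fell and 2 rose, beside 1477 lower and 1837 higher genes overall. The kinesin genes added were Kifc3, Kif15, Kif21a and Kif11. A block leaves 1 residual degree of freedom per gene.

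Changes close to 0 turned sign. Kif13a was 0.0050 after quantile normalization and Kif9 -0.0014 with library medians set equal. With a library left out the ranges were -0.085 to 0.066 for Kif13a, -0.11 to 0.13 for Kif9, -0.11 to 0.14 for Kif2a, -0.032 to 0.28 for Kif6, -0.15 to 0.015 for Kif18a, -0.17 to 0.40 for Kif5a, -0.22 to 0.50 for Kifc2, -0.10 to 0.17 for Klc4, -0.019 to 0.15 for Kif3c and -0.014 to 0.19 for Kif7. None of these genes was called under any alternative. The cause of these differences was not tested. Kif26b, which the filter on low levels left out, had a change of 0.59 (95% confidence interval -0.35 to 1.52, limma adjusted p = 0.485) with no filter. Its estimate of 21 to 34 reads per library did not come out whole and is uncertain. Kif12, at the value given to genes without reads in all 4 libraries, gives no interpretable change.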
